A study of Mus musculus with 14 samples.

Results

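The bone morphogenetic protein (BMP) pathway was examined through 10 genes in sorted liver sinusoidal endothelial cells (LSECs) of the mouse, which form the perforated wall of the liver capillaries. They were the ligand gene Bmp2, the receptor genes Bmpr2, Acvr1 and Acvrl1, the co-receptor gene Eng, the signal-carrying Smad1 and Smad5, the inhibitory Smad6 and Smad7, and the target gene Id1. The genes were chosen by name and each matched 1 of the 23930 targets counted in every library. All 10 had enough reads to be tested. Libraries came from aged (10 to 11 months) and young (8 to 10 weeks) female wild-type C57BL/6J mice, with 7 libraries of each, of which 3 belong to experiment 1 and 4 to experiment 2. The cells had been sorted for dim CD45, high STAB2 and high CD146, and each target was read as an amplicon of the Ion AmpliSeq mouse transcriptome panel. Libraries are named by age and by experiment and replicate number, as in aged 2.4. The labels do not state that each library is a separate mouse, so the p-values measure the spread between these libraries, which may be partly technical.

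BMPs are secreted dimers that join a type II receptor kinase to a type I receptor kinase at the cell surface. The activated type I receptor phosphorylates SMAD1 and SMAD5, which enter the nucleus with SMAD4 and switch on genes such as Id1, Smad6 and Smad7. The products of the inhibitory Smad genes damp the signal. In the liver, BMP2 and BMP6 made by LSECs act on hepatocytes, which answer with hepcidin, the hormone that holds back iron uptake. LSECs and other endothelia also receive BMP9 and BMP10 through ALK1, the product of Acvrl1, with endoglin, the product of Eng, as co-receptor. The series title concerns iron-triggered regulation of Bmp6 in LSECs, and the age comparison asks which transcripts differ between aged and young cells.

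Promoter sequences were at hand for 6 of the 10 genes, and 3 are shown because they belong to a feedback gene, a receptor and a co-receptor described below. They are RefSeq sequences of build GRCm38.p6, running from 250 bases before to 50 bases after the annotated start, 5′ to 3′ on the gene's strand. Each runs in lower case with the matched letters in capitals.
Smad6 (chr9:64022010-64022309, minus strand): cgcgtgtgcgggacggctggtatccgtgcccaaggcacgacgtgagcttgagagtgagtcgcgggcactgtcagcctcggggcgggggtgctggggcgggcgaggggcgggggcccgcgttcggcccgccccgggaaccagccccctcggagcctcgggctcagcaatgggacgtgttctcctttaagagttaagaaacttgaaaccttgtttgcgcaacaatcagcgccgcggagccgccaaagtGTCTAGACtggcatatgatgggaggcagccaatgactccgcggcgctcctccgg
Bmpr2 (chr1:59764029-59764328, plus strand): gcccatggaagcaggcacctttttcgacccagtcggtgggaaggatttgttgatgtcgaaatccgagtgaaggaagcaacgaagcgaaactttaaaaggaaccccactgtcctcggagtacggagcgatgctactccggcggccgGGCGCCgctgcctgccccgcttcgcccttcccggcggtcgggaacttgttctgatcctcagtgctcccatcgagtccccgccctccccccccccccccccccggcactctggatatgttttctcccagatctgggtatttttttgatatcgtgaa
Eng (chr2:32646345-32646644, plus strand): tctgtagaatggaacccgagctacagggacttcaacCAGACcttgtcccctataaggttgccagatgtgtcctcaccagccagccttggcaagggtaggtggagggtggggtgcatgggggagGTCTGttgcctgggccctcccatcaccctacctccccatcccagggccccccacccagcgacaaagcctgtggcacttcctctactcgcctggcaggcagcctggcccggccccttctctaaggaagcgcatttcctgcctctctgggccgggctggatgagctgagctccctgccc

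The capitals in Smad6 mark GTCTAGAC, the palindrome to which SMAD proteins are known to bind, at bases 247 to 254 of the window, so that it spans the annotated start. It occurs in 0.213% of the 32851 promoter windows of the table and in no other of the 8 windows of these genes. Those in Bmpr2 mark GGCGCC, a GC-rich run known as a SMAD1 and SMAD5 element, found in 11.9% of all windows and also in windows of Smad5. The 2 capital runs in Eng mark CAGAC, which contains a single SMAD half-site, on either strand. In all, 49.6% of windows hold it, a Smad5 window among them. In all, 11 letter runs were searched on both strands, and those shown were picked after the matches were seen. The other 8 overlap each other or those shown in part. For SMADs they were the longer GC-rich run TGGCGCC, the half-site written as GTCT, the half-site with a GC-rich tail as GTCTGGCG, a variant of the GC-rich run as GGAGCC, and the GC-rich run followed by the half-site after 5 bases. For ETS factors, of which the series title names ETS1, they were the core run CCGGAA, its longer form with the letters CCGGAAGT, and a variant of it, CAGGAAG. A match is a description of the letters and not a shown binding site.

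The libraries held 6710403 to 13977361 gene reads, and each gene of the set had between 109 and 90383 reads in every library. All 9 of 9 LSEC markers were tested and none was at 0 anywhere. The 6 matched hepatocyte markers were not at 0 anywhere either, so this alone does not mark LSECs. The scavenger receptor gene Stab2, whose product was used in the sort, lay at 1713 to 2143 CPM in aged and 1858 to 2250 CPM in young libraries. Lyve1 varied more, with 334.0 to 1609 CPM in aged and 853.9 to 2059 CPM in young libraries. CPM is the usual count scaled to a common library total, here with TMM scaling, a trimmed mean of log ratios between libraries. Of the 9, 3 had a higher and 6 a lower fitted level in aged libraries. Summed LSEC markers lay at 15836 to 25518 CPM in aged and 19218 to 25579 CPM in young libraries. Markers of other cells were also read: 8 of 8 tested Kupffer cell markers had a higher fitted level in aged libraries (33.5 to 260.5 CPM in sum, against 31.6 to 101.5 CPM in young), and so had 4 of 4 B cell markers (2.58 to 169.8 against 1.37 to 43.4 CPM), 6 of 6 hepatocyte markers (437.9 to 4968 against 350.2 to 1645 CPM) and 6 of 8 stellate cell markers (143.3 to 772.4 against 164.7 to 459.5 CPM). Also higher were 5 of 5 monocyte and neutrophil, 5 of 5 T and NK cell and 4 of 4 cholangiocyte markers, while 0 of 5 general endothelial markers were. No marker of these lists was called, and the part of such cells in the values below was not tested. Targets of smell, pheromone and taste receptors took 0.146 to 3.18% of gene reads, and the source of these reads was not tested. In bulk samples fewer cells of a type and less RNA per cell cannot be told apart.

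None of the 10 genes differed between aged and young LSECs beyond the spread between libraries. edgeR's quasi-likelihood test with the experiment as a term called 0 of 10 at a Benjamini-Hochberg adjusted p under 0.05, where 0.224% of the 15184 tested targets were called, 18 higher and 16 lower in aged libraries (29 and 17 with library size in place of TMM scaling). At an unadjusted p under 0.05 it was also 0 of 10, against 7.4% of all tested targets. DESeq2, which called 0.955% of targets with an adjusted p, and limma-voom, which called 0.244% of tested targets, likewise called 0 of 10. For 0 of 10 genes did the aged and young CPM ranges fail to overlap, as 0.323% of all targets did. The smallest adjusted p in the set was 0.907, for Acvr1. Fitted levels were higher in aged libraries for 7 genes and lower for 3 (Acvrl1 and Smad1 took the other sign with RLE scaling, and Eng with no TMM scaling), with a median log2 fold change of 0.04, while the median over all tested targets was 0.02. The median absolute log2 fold change was 0.08 in the set and 0.15 over all tested targets. The 95% intervals of the 10 genes, each for its gene alone, ran at most from 0.741-fold (Acvrl1) to 1.42-fold (Smad6). Levels are compared between ages and not between genes, because amplicons differ in how well they amplify.

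**Figure D1:**
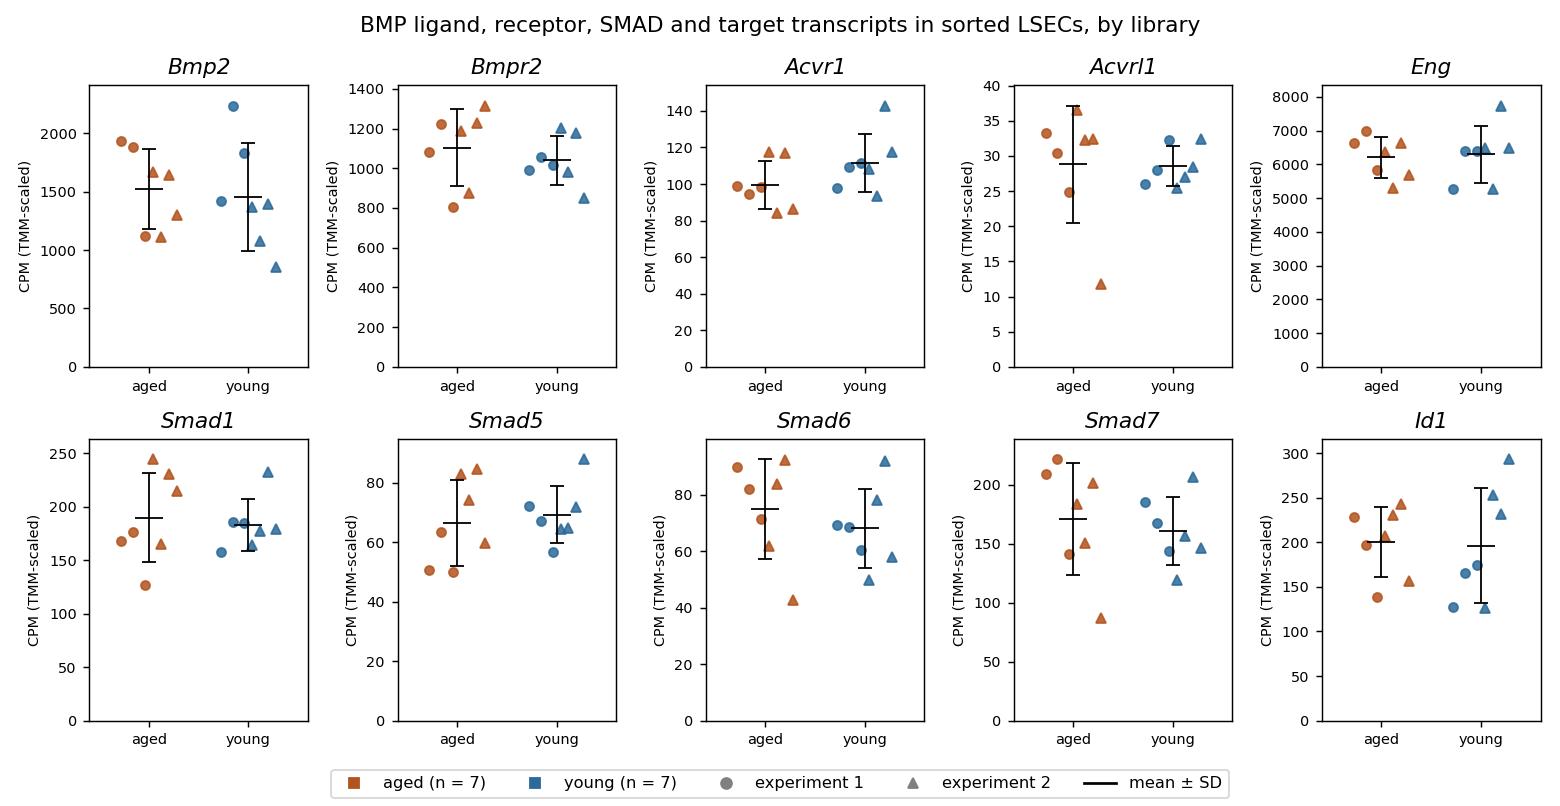
Level of each gene (CPM after TMM scaling, axes from 0) in every library, aged left and young right, with circles for experiment 1, triangles for experiment 2 and black bars for the mean ± SD of 7 libraries. Aged and young points overlap for every gene, and aged 2.4 is the lowest point for Acvrl1 (11.7 CPM), Smad6 (42.5 CPM) and Smad7 (86.5 CPM).

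Bmp2 (NM_007553.3) encodes the ligand that LSECs supply beside BMP6. It lay at 1115, 1645 and 1929 CPM (lowest, median and highest) in aged libraries and at 858.9, 1394 and 2233 CPM in young libraries. The young range enclosed the aged range, and both its ends, young 2.4 and young 1.2, were the extremes of all 14 libraries. The mean was 1522 ± 343.4 CPM in aged libraries, against 1454 ± 458.4 CPM in young ones (SD, n = 7 each), a fold of 1.07 (95% interval 0.819 to 1.40). In experiment 1 the means of Bmp2 were 1642 ± 454.3 CPM in aged libraries, against 1828 ± 408.5 CPM in young ones (n = 3 each). In experiment 2 the means were 1432 ± 270.2 CPM in aged libraries, against 1173 ± 253.8 CPM in young ones (n = 4 each). The experiments gave log2 values of opposite sign, −0.15 (SE 0.269) in experiment 1 and 0.29 (SE 0.233) in experiment 2, and their difference of 0.44 had a 95% interval of −0.33 to 1.21.

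The companion ligand gene Bmp6, which is not in the set, gave the reference point for Bmp2. Its count divided by the Bmp2 count of the same library, a ratio that no scaling affects, averaged 0.389 ± 0.0671 in aged and 0.246 ± 0.0490 in young libraries (SD, n = 7 each). It lay at 0.288, 0.398 and 0.494 (lowest, median and highest) in aged libraries and at 0.203, 0.224 and 0.344 in young libraries. In experiment 1 the groups did not overlap, with 0.398 to 0.494 in aged and 0.203 to 0.269 in young libraries. In experiment 2 they did, with 0.288 to 0.406 in aged and 0.209 to 0.344 in young libraries, young 2.3 being the high young value. The ratio is given without a test, since Bmp6 was known from earlier work on these data to be higher in aged LSECs. Because the amplicons differ, the ratio compares ages and does not say which ligand is more abundant.

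**Figure D2:**
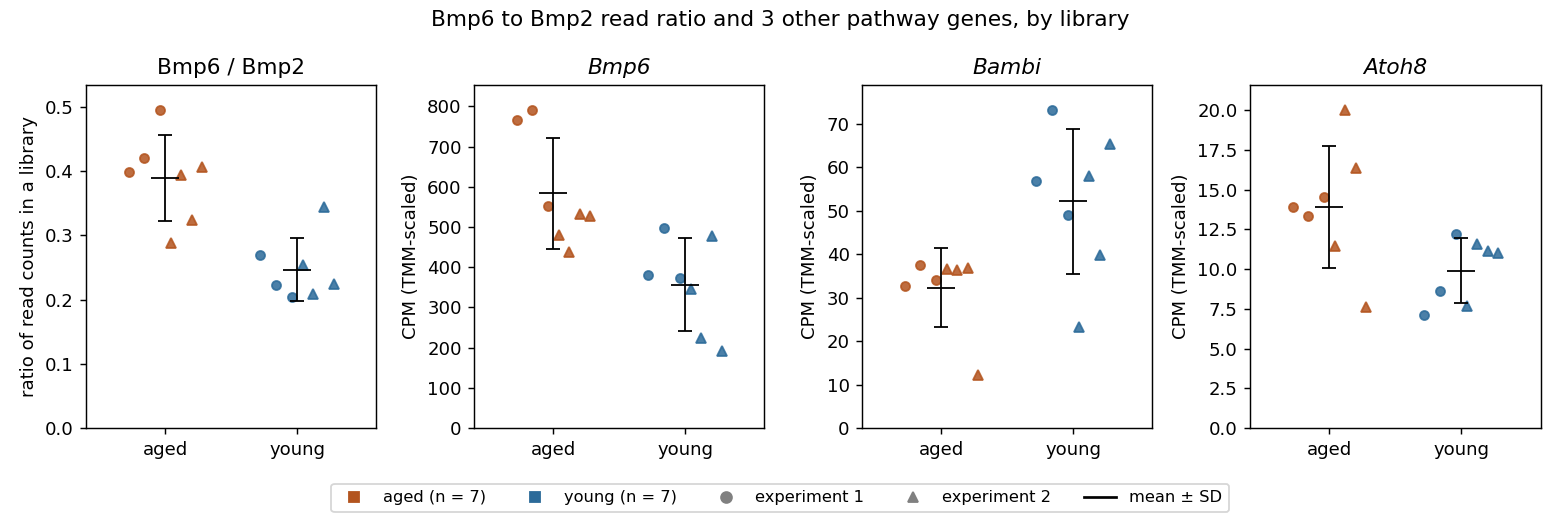
Left, Bmp6 reads divided by Bmp2 reads in each library; other panels, CPM of Bmp6, Bambi and Atoh8, with aged left of young, circles for experiment 1, triangles for experiment 2 and bars for the mean ± SD of 7 libraries. The ratio averaged 0.389 in aged and 0.246 in young libraries, and the single low aged point of Bambi (12.3 CPM) is aged 2.4.

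Bmpr2 (NM_007561.4), the type II receptor whose promoter is shown above, lay at 806.8, 1189 and 1314 CPM in aged and at 849.9, 1017 and 1201 CPM in young libraries. Both ends of the aged range lay outside the young range. Means of 1103 ± 192.5 CPM in aged libraries, against 1039 ± 121.2 CPM in young ones, gave a fold of 1.06 (95% interval 0.878 to 1.28). Acvr1 (NM_001110204.1) encodes ALK2, a type I receptor for BMP6 and other ligands. It lay at 84.4, 98.3 and 117.5 CPM in aged and at 93.4, 109.1 and 142.7 CPM in young libraries. In 5 of 7 aged libraries it was below the mean of the young libraries of the same experiment, and its log2 fold changes were −0.13 and −0.19 in experiments 1 and 2. With a fold of 0.893 (95% interval 0.763 to 1.05) it had the smallest unadjusted p of the set, 0.146 by edgeR.

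Acvrl1 (NM_001277255.1), which encodes ALK1, was the gene with the fewest reads. It lay at 11.7, 32.3 and 36.6 CPM in aged and at 25.4, 28.0 and 32.5 CPM in young libraries. Aged 2.4, with 109 reads, stood below all other libraries, and the next aged library had 24.8 CPM. The fold was 1.01 (95% interval 0.741 to 1.37) with that library and the SD was 8.32 CPM in aged against 2.84 CPM in young libraries. Without aged 2.4 the log2 fold change was 0.13, against 0.01 with it, and the gene was not called either way. Eng (NM_001146348.1), the endothelial co-receptor that works with ALK1, varied least. It lay at 5294, 6366 and 6994 CPM in aged and at 5275, 6392 and 7732 CPM in young libraries, a fold of 0.986 (95% interval 0.809 to 1.20). The coefficient of variation over the 14 libraries was 11.3% for Eng and 26.3% for Bmp2, the most variable of the set.

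Smad1 (NM_008539.3) and Smad5 (NM_001164041.1) encode the near-identical proteins that BMP receptors phosphorylate. Smad1 lay at 126.9, 176.6 and 244.1 CPM in aged and at 158.0, 179.1 and 232.5 CPM in young libraries, a fold of 1.02 (95% interval 0.854 to 1.23). Smad5 lay at 49.8, 63.4 and 84.6 CPM in aged and at 56.7, 67.2 and 87.8 CPM in young libraries, a fold of 0.949 (95% interval 0.8003 to 1.13). For both the aged range began lower than the young range, at aged 1.3. In experiment 1 both had a lower fitted level in aged libraries, with log2 fold changes of −0.16 (SE 0.178) for Smad1 and −0.26 (SE 0.168) for Smad5. In experiment 2 both had a higher one, 0.18 (SE 0.154) and 0.06 (SE 0.145). The test of that difference gave unadjusted p-values of 0.164 and 0.174 by edgeR, so opposite effects in the experiments were not shown.

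Smad6 (NM_008542.3) and Smad7 (NM_001042660.1) encode the inhibitory SMADs, which are switched on by the pathway and feed back on its receptors. Smad6 lay at 42.5, 82.0 and 92.3 CPM in aged and at 49.9, 68.7 and 91.8 CPM in young libraries. Its fold of 1.10 (95% interval 0.847 to 1.42) was the largest of the 7 above 1, while Acvr1 lay farther from 1 in the other direction. Smad7 lay at 86.5, 183.8 and 221.3 CPM in aged and at 118.9, 156.4 and 206.7 CPM in young libraries, a fold of 1.06 (95% interval 0.806 to 1.39). For both genes aged 2.4 was the lowest of the 14 libraries. In experiment 1 the aged means were 81.0 ± 9.22 CPM for Smad6 and 190.7 ± 43.1 CPM for Smad7, against young means of 66.0 CPM for Smad6 and 165.3 ± 21.1 CPM for Smad7 (n = 3 each). The experiment 1 log2 fold changes were 0.30 (SE 0.270) for Smad6 and 0.21 (SE 0.286) for Smad7. In experiment 2 they were 0.014 (SE 0.234) and −0.012 (SE 0.248). The edgeR test of the difference between experiments gave unadjusted p-values of 0.445 and 0.574, so different effects were not shown. In experiment 2 (n = 4 each, with the low aged 2.4) Smad6 averaged 70.0 ± 22.4 CPM in aged libraries, against 69.5 ± 19.0 CPM in young ones. Smad7 averaged 155.7 ± 50.7 CPM in aged libraries, against 157.1 ± 36.7 CPM in young ones.

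Id1 (NM_010495.3) encodes an inhibitor of DNA binding and is a standard readout of BMP signalling. It lay at 139.2, 207.5 and 242.6 CPM in aged and at 125.8, 174.7 and 293.1 CPM in young libraries. The young range enclosed the aged one, as for Bmp2, with young 2.1 lowest and young 2.4 highest. The means were 200.3 ± 39.2 CPM in aged libraries, against 196.1 ± 64.5 CPM in young ones, a fold of 1.04 (95% interval 0.788 to 1.37). Young 2.4, the library highest for Id1, was the lowest for Bmp2.

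**Figure D3:**
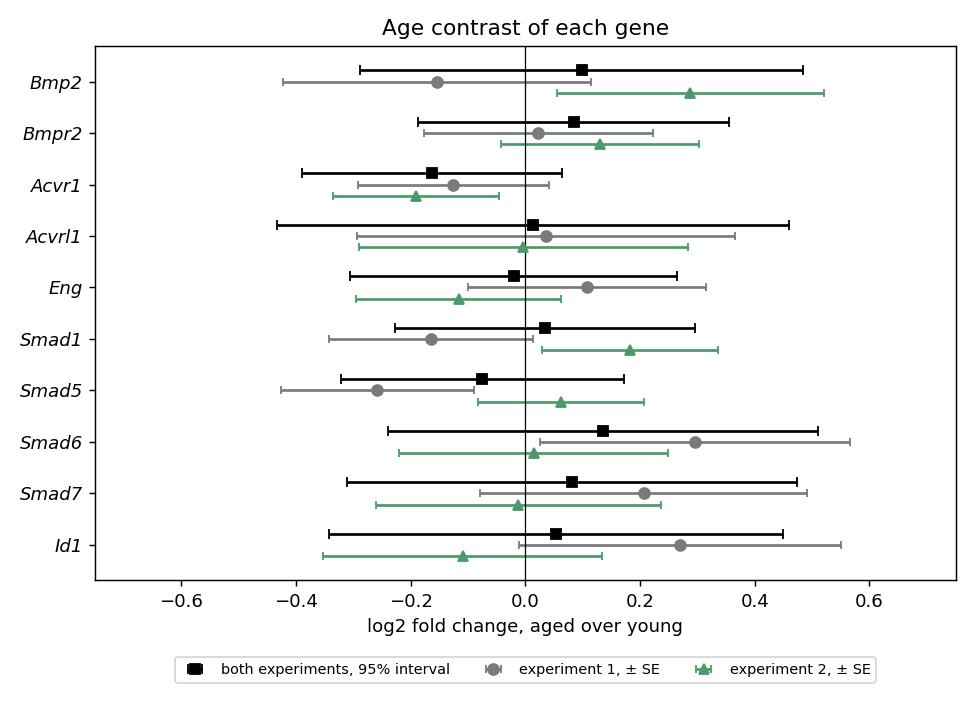
Log2 fold change of each gene, aged over young, with squares for both experiments together (bars, 95% interval), circles for experiment 1 and triangles for experiment 2 (bars, SE). Every 95% interval crosses 0, and the 2 experiments lie on opposite sides of 0 for Bmp2, Acvrl1, Eng, Smad1, Smad5, Smad7 and Id1.

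Neither experiment by itself showed an age difference in the set. edgeR called 0 of 10 genes in experiment 1, where 0% of targets were called, and 0 of 10 in experiment 2, where 0.0198% were. The difference between the experiments was called for 0 of 10 genes and for 0% of all targets. At an unadjusted p under 0.05 the count was 0 of 10 in each of these 3 tests, against 6.64%, 3.42% and 2.44% of all targets, and DESeq2 and limma-voom called 0 of 10 as well. The experiments shared no direction beyond that of Bmpr2, Acvr1 and Smad6, whose fitted changes had 1 sign in both. Over both ages Bmp2 was at 1303 ± 279.3 CPM in experiment 2 (n = 8) and 1735 ± 399.5 CPM in experiment 1 (n = 6). Id1 was at 217.7 ± 53.8 CPM in experiment 2 and 172.2 ± 37.1 CPM in experiment 1. Smad5 was at 73.8 ± 10.4 CPM in experiment 2 and 60.0 ± 9.05 CPM in experiment 1. These differences between experiments are given without a test.

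The genes were next compared with each other across libraries, after the mean of each age and experiment had been removed from log2 CPM. Of 45 pairs, 5 had an adjusted permutation p under 0.05 for Pearson's r, each at 0.0417, and 0 had one for Spearman's rho. The share of pairs of other targets that would pass was not determined, so the count does not set these genes apart. Smad6 and Smad7, the inhibitory pair, had r = 0.84 (permutation p = 0.00368) and rho = 0.77 (permutation p = 0.00634, adjusted 0.0951) over 14 libraries. Their r was 0.88 within experiment 1 and 0.86 within experiment 2, and 0.66 without the 2 farthest libraries, aged 2.4 and young 2.1. Bmp2 and Bmpr2 had r = 0.82 (permutation p = 0.0038) and rho = 0.60 (permutation p = 0.0385, adjusted 0.173), with r of 0.84 and 0.83 within the experiments and 0.68 without the 2 farthest libraries, aged 1.3 and young 2.4. The other 3 pairs were Acvr1 with Eng (r = 0.85, permutation p = 0.00463), Eng with Smad1 (r = 0.80, permutation p = 0.00282) and Acvrl1 with Id1 (r = 0.59, permutation p = 0.00154). Their rho was 0.85 (permutation p = 0.0033), 0.87 (permutation p = 0.00134) and 0.61 (permutation p = 0.0176). Within experiments 1 and 2 their r was 0.58 and 0.94 for Acvr1 with Eng, 0.92 and 0.74 for Eng with Smad1, and 0.95 and 0.55 for Acvrl1 with Id1; without the 2 farthest libraries it was 0.72, 0.85 and 0.74. The count of 5 was not stable. It was 0 with no TMM scaling and 0 without any single one of aged 1.1, 1.3, 2.3 and 2.4 and young 1.1, 1.2, 1.3 and 2.3. It was 1 without aged 1.2 or 2.2, 2 without young 2.1 or 2.2, and 3 without aged 2.1. Without young 2.4 it was 5, but with Bmp2 and Eng, Bmp2 and Smad1, and Smad5 and Smad7 as new pairs. On leaving out 1 library, Bmp2 and Bmpr2 were called only without aged 2.1. The r of Smad6 and Smad7 without aged 2.4 was 0.74. Bmp2 and Id1 had r = 0.09 (permutation p = 0.799) and rho = 0.04 (permutation p = 0.917), with r of 0.92 within experiment 1 and −0.42 within experiment 2.

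**Figure D4:**
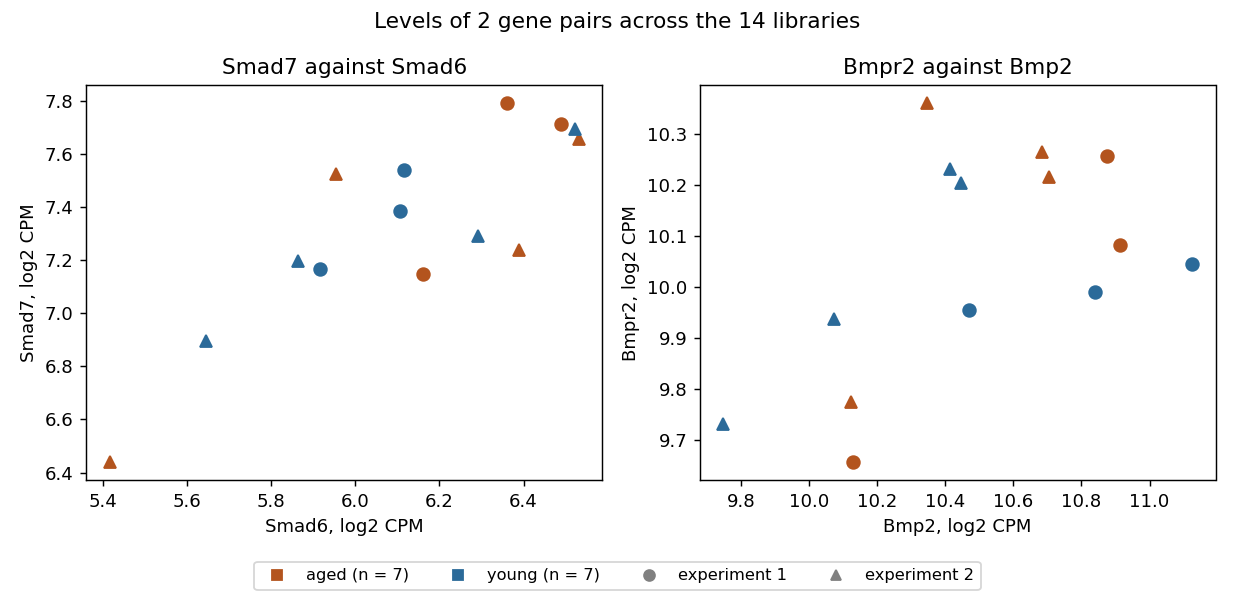
Log2 CPM of Smad7 against Smad6 (left) and of Bmpr2 against Bmp2 (right) in the 14 libraries, with aged and young in different colours, circles for experiment 1 and triangles for experiment 2. Smad6 and Smad7 fall along a rising band that ends low at aged 2.4, and Bmpr2 rises with Bmp2 within each experiment.

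Aged 2.4 was the lowest of the 14 libraries for Acvrl1, Smad6 and Smad7, and the highest for Bmpr2 (1314 CPM). It was also lowest for Id3 (396.1 CPM), a BMP target related to Id1, and for Bambi (12.3 CPM), which encodes a decoy receptor. Other genes of the Id family were not lowest there. Id1 was at 156.7 CPM, above aged 1.3 (139.2 CPM), and Id2 at 142.2 CPM was at its highest among aged libraries. In that library receptor targets took 2.81% of reads, LSEC markers summed to 21945 CPM, Kupffer cell markers to 33.5 CPM and hepatocyte markers to 1222 CPM. The part of these in its low values was not tested.

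By the closeness of their profiles over the 14 libraries, the targets most like Bmp2 were Selenop, Itm2b, Mcc, Adgrl4 and Tnfsf10. Their log2 CPM, centred on its own mean, differed from that of Bmp2 by a root mean square of 0.18 to 0.20, where Bmp2 itself had an SD of 0.39. Adgrl4 is an endothelial adhesion receptor and Tnfsf10 encodes the death ligand TRAIL. Among those most like Id1 were Klf10, Pgpep1, Tead2 and Rangap1, at 0.19 to 0.23 against an SD of 0.39. Klf10 encodes a zinc finger factor known to be induced by TGF-beta. Closeness was ranked over 7036 targets averaging at least 20 CPM, and no gene of the set was among the closest 5 to either gene.

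The rest of the pathway was read from a list of 72 genes by role, of which 69 matched a target and 49 were tested. edgeR called none of them, 3 had a higher and 2 a lower level in aged libraries at an unadjusted p under 0.05, where 670 of the 15184 tested targets had a higher and 453 a lower one (7.4% together). limma-voom also called 0, and DESeq2 called 1, Bmp6, against 0.955% of all targets to which it gave an adjusted p. The median log2 fold change of the 49 was 0.04. Among 10 tested ligands Bmp6 averaged 584.1 ± 138.4 CPM in aged libraries, against 356.1 ± 115.5 CPM in young ones, 1.63-fold (95% interval 1.25 to 2.14; edgeR adjusted p = 0.273, DESeq2 adjusted p = 0.0306, range over all alternatives 0.0306 to 0.713). Bmp7 averaged 1.36 ± 1.43 CPM in aged libraries, against 0.421 ± 0.701 CPM in young ones, and Bmp5 7.69 ± 8.31 CPM in aged libraries, against 4.23 ± 3.79 CPM in young ones. Gdf2, for BMP9, and Bmp10, whose products LSECs receive, had few reads. Gdf2 had 0.391 to 11.7 CPM in aged and 1.09 to 9.83 CPM in young libraries, and Bmp10 was not tested.

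Of the other type I receptors Bmpr1a, which encodes ALK3, averaged 3.81 ± 1.45 CPM in aged libraries, against 2.91 ± 1.46 CPM in young ones, and Bmpr1b had at most 1 read in any library. Acvr1b and Tgfbr1, type I receptors for activins and TGF-beta, had log2 fold changes of −0.12 and 0.04. The 3 other type II receptor genes had log2 fold changes of −0.06 (Acvr2a), −0.09 (Tgfbr2) and 0.31 (Acvr2b, SE 0.288). The decoy receptor gene Bambi lay at 12.3, 36.4 and 37.5 CPM in aged and at 23.3, 56.7 and 73.0 CPM in young libraries. In 7 of 7 aged libraries it was below the mean of the young libraries of the same experiment. How many of all tested targets had such a count was not determined. The fold of Bambi was 0.623 (95% interval 0.424 to 0.916), with an edgeR quasi-likelihood adjusted p of 0.586. The log2 fold change was −0.22 (SE 0.218) for Neo1 and 0.13 (SE 0.167) for Tgfbr3, both co-receptor genes. The log2 fold changes of Smad9, Smad2 and Smad3 were 0.79 (SE 0.515), −0.21 (SE 0.166) and −0.07 (SE 0.195). Smad4, the common partner, averaged 73.3 CPM in aged libraries, against 71.5 CPM in young ones, and none of these 4 SMAD genes reached an unadjusted p under 0.05 by edgeR.

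Of 8 tested extracellular modulators Htra1, a secreted protease that restrains TGF-beta family signals, averaged 23.5 ± 10.4 CPM in aged libraries, against 14.02 ± 5.20 CPM in young ones (1.64-fold, 95% interval 1.21 to 2.23, edgeR adjusted p = 0.409). For Fstl1 the log2 fold change was −0.59 (SE 0.669), and for Nog, which encodes the BMP antagonist noggin, 0.74 (SE 0.848). Of 11 intracellular regulators Usp15, a deubiquitinase that acts on SMADs and their receptors, averaged 150.5 ± 28.6 CPM in aged libraries, against 176.9 ± 14.4 CPM in young ones (0.844-fold, 95% interval 0.743 to 0.960, edgeR adjusted p = 0.554). For the ubiquitin ligase gene Smurf1 it was −0.26 (SE 0.159) on the log2 scale, and for the phosphatase gene Ppm1a −0.08 (SE 0.0855). Of 6 tested BMP-responsive genes other than those of the set, 0 were called and 1, Atoh8, had an unadjusted p under 0.05 by edgeR. Their log2 fold changes were positive in 6 of 6, as were those of 8262 of the 15184 tested targets, and had a median of 0.23; the list was not tested as a group. Atoh8, an endothelial transcription factor gene downstream of BMP receptors, averaged 13.9 ± 3.85 CPM in aged libraries, against 9.91 ± 2.06 CPM in young ones (1.41-fold, 95% interval 1.002 to 1.97, edgeR adjusted p = 0.671). Unc5b, a netrin receptor gene, had a log2 fold change of 0.38 (SE 0.279). Id3 averaged 1213 CPM in aged libraries, against 1136 CPM in young ones, with a log2 fold change of 0.10. Id2, of the same family, had a log2 fold change of 0.78 in experiment 1, against −0.10 in experiment 2. The test of that difference gave an edgeR unadjusted p of 0.0303, which was not called after adjustment. Neo1, at −0.74 in experiment 1 and 0.17 in experiment 2, had an unadjusted p of 0.0317 in the same edgeR test. It was not called either, and 2.44% of all tested targets had an unadjusted p under 0.05 there.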

How the data were processed

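Messenger RNA was measured in 14 libraries of sorted LSECs. The deposited values are raw read counts per RefSeq target, with a table for each of the libraries. HTSeq 0.6.0 and DESeq2 1.18.1 are the tools named per the submitters' processing notes. Which aligner, genome build and strand setting were used is not given in these sources. The 5 bookkeeping entries, 1.24 to 3.04% of reads, were left out. Symbols came from RefSeq: 18128 targets were found by versioned accession, 4324 by accession alone and 110 by way of GENCODE, and 1368 found no symbol.

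Counts were filtered with filterByExpr over the 4 age and experiment groups, scaled by TMM and tested with edgeR 4.0.16 (quasi-likelihood, Benjamini-Hochberg over all tested targets, R 4.3.3), with age and experiment as terms. A model of 4 group means gave the values within experiments. DESeq2 1.42.0 and limma-voom 3.58.1 were alternatives. Fits were tested on simulated counts with equal relative spread for every target and no experiment effect. That run does not show how small a change could be found in these data. Pair correlations used 100000 permutations within groups. Named pathway genes were the 3 per role with the smallest p, and Gdf2, Bmp10, Bmpr1b, Smad4 and Id3 were named besides, after their values were seen. The members and lists were chosen with earlier results of these data known. Aged 1.1 and 1.2 were the most alike replicates (chi-square per degree of freedom 6.36, next pair 19.6), above sampling noise, and were kept apart. Intervals cover the spread between libraries. Reads carry no molecular identifiers. One of the targets closest to Id1 is not reported here.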

Additional observations from a re-analysis of the deposited data

Results flagged for a closer look

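Smad1 in young 2.3 stood apart from the other young libraries. At 232.5 CPM it was the highest of the 7, with the next at 186.0 CPM, and the gap was 0.624 of the group's range, above the 95% critical value of Dixon's test for a group of that size. Each of the 10 genes was checked in both ages, 20 groups in all, and this was the 1 group that passed. Chance gives about 1 in 20. The check pooled both experiments, and over both ages Smad1 averaged 200.9 CPM in experiment 2, against 166.7 CPM in experiment 1. Aged 2.1, of the same experiment as young 2.3, was higher still at 244.1 CPM. Young 2.3 was also the highest of all 14 libraries for Acvr1 and Eng.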

How the results depend on the processing

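For age over both experiments, each alternative run called 0 of the 10 genes. Within either experiment and for the difference between experiments the count was also 0 in each alternative run there, which were RLE scaling, no TMM, no filter, DESeq2, limma-voom, the receptor read term and leaving out 1 library. Over 250 refits of single genes the lowest adjusted p was 0.388 and log2 fold changes lay between −0.27 and 0.23; 37 had the other sign, 21 of them on leaving out 1 library. The cause of the sign changes was not tested. Acvrl1 was at −0.021 with RLE scaling, DESeq2 or limma-voom, −0.029 with no filter, −0.042 with the replicate block, −0.052 with a receptor read term, −0.11 with a leukocyte marker term and −0.010 with aged 1.1 and 1.2 summed. Smad1 was at −0.0062 with RLE, −0.012 with no filter, −0.0061 with DESeq2 and −0.054 without young 2.2 and aged 2.4. Without those 2 libraries Bmpr2 was at −0.019. Eng was at 0.013 with no TMM and 0.035 with the leukocyte marker term, and Id1 at −0.0011 with aged 1.1 and 1.2 summed. Leaving out 1 library gave −0.27 to −0.098 for Acvr1, −0.069 to 0.13 for Acvrl1, −0.0096 to 0.20 for Bmp2, 0.0012 to 0.15 for Bmpr2, −0.12 to 0.038 for Eng, −0.041 to 0.14 for Id1, −0.057 to 0.10 for Smad1, −0.17 to −0.033 for Smad5, 0.052 to 0.23 for Smad6 and 0.012 to 0.18 for Smad7. Targets called numbered 34, against 143 with DESeq2, 19 with no experiment term, 58 with the receptor read term, 5 with the leukocyte marker term, 11 with aged 1.1 and 1.2 summed and 4 to 29 on leaving out 1 library. Gene pairs called numbered 5, against 3 with the receptor share removed, 0 with no TMM, 0 without young 2.2 and aged 2.4, and 0 to 5 on leaving out 1 library. The log2 fold change of Bmp6 was 0.67 with DESeq2, past the threshold; the refits of Bmp6, Htra1, Usp15, Bambi and Atoh8 were added after seeing the data. Whether equal replicate numbers mark paired libraries could not be decided, since each number has only 1 library of each age. Same-numbered deviations correlated at −0.31 to 0.74, and 3 of 7 aged libraries correlated best with their own number. The replicate block left 2 targets called. Depth limits Acvrl1 most, with 109 reads in aged 2.4.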
